A study of Rattus norvegicus with 24 samples.

Results

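Integrins, cadherins and claudins are the 3 large families of surface proteins through which cells hold on to matrix and to each other, and their messenger RNAs were measured here in rat testis cells of newborn animals, fresh and in gel culture. The members were all genes of the table named as an integrin alpha or beta subunit, a numbered cadherin or a numbered claudin, leaving out Cdh2, Cdh5 and Cldn11. This gave 66 of the 21425 genes, made up of 17 integrin alpha subunits, 8 integrin beta subunits, 21 cadherins and 20 claudins.

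An integrin is a pair of 1 alpha and 1 beta subunit that spans the membrane, binds collagens, laminins, fibronectin or other ligands outside and is coupled to actin inside through talin, kindlin and vinculin. Classical cadherins bind cadherins on the neighbouring cell and are tied to actin by catenins, and claudins form the strands of tight junctions. In the testis these families anchor Sertoli and peritubular myoid cells to the basement membrane between them, hold germ cells to Sertoli cells and help to seal the blood-testis barrier, which forms only after the age studied here.

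All libraries came from wild-type Sprague Dawley rats of postnatal day 5, and the full mixture of testis cells was used without enrichment. The baseline experiment used 1 litter. Its groups were the freshly isolated cells, named tissue in what follows, and cultures of 3, 5 and 7 days in Matrigel, a basement membrane extract rich in laminin and type IV collagen, at 4.5 mg/mL in serum-free medium. Each group had 3 technical replicates. In the induction experiment, cultures of 3 litters were kept for 10 days and sampled before (0 h) and 2, 12 and 48 h after 50 mIU/mL luteinizing hormone (LH) and 20 mIU/mL follicle-stimulating hormone (FSH) were given in fresh medium, with 3 pooled cultures per litter and time forming 1 library. Baseline p-values therefore measured technical spread within 1 litter. No untreated library at 2, 12 or 48 h was analysed, so hormone, medium change and time cannot be told apart, and neither can fewer cells of a type and less RNA per cell.

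Levels are in CPM, in which each library's reads are scaled to 1 common total, and the 24 libraries held 15793940 to 30400440 reads. Where a gene had no read, counting error alone left room for 3 reads, which is 0.0987 to 0.19 CPM depending on the library. CPM is not scaled to gene length and no transcript lengths were used, so levels were compared between groups and not between genes. A level with an error is a mean with its SD, a log2 fold change is on the log2(CPM + 1) scale with its SE, and n = 3 libraries per group throughout. A gene was called at a limma p under 0.05 after Benjamini-Hochberg adjustment over all genes tested, and "rose" and "fell" are used of called genes. Marker sums in tissue were 2761 to 3001 CPM for 9 Sertoli cell genes, 1426 to 1592 CPM for 8 myoid genes, 491 to 521 CPM for 10 germ cell genes and 72.9 to 85.5 CPM for 10 macrophage genes.

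To be tested, a gene needed at least 1 CPM in at least 3 of the 12 libraries of an experiment. In the baseline experiment 39 of the 66 members passed: 16 of 17 integrin alphas, 6 of 8 integrin betas, 12 of 21 cadherins and 5 of 20 claudins. In the induction experiment 39 passed too, and 38 passed in both. Below 1 CPM in all 24 libraries were 22 members, of which Cdh9, Cdh16, Cdh19, Cldn8 and Cldn17 had no read in any. Through the cultures alone 7 members passed in the baseline (Cdh4, Cdh6, Cdh17, Cdh18, Cldn15, Itga2 and Itga2b) and 2 through the tissue alone (Cldn23 and Itgax), so these had to differ between the groups. Their p-values against tissue are therefore descriptive and no support for a change.

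The promoters of 4 members are shown because of their place in the culture comparison at day 7 on the log2(CPM + 1) scale. On that scale the collagen receptor subunits Itga1 and Itga11 had the largest rises, Cdh23 the largest fall, and Cldn1 the largest fall of a claudin. The scale shrinks changes of genes near 1 CPM. In alternative fits the day 7 change reached 4.51 for Itga2, 4.29 for Cdh18 and 4.08 for Cdh4, against 3.90 for Itga1. For claudins it reached -2.88 for Cldn23 and -2.18 for Cldn1. The sequences are from RefSeq. Each line is the 250 bases before the annotated start, 5′ to 3′ on the gene's strand, at GRCr8 positions chr2:48545284-48545533 (minus strand), chr8:72041182-72041431 (plus strand), chr20:29165333-29165582 (minus strand) and chr11:87926126-87926375 (plus strand). Capitals mark matches to the GC box GGGCGG on either strand.
Itga1 promoter: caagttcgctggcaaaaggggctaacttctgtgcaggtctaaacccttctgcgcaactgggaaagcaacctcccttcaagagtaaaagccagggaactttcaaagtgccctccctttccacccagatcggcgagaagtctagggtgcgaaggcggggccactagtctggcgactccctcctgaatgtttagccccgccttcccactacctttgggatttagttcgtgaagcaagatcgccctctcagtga
Itga11 promoter: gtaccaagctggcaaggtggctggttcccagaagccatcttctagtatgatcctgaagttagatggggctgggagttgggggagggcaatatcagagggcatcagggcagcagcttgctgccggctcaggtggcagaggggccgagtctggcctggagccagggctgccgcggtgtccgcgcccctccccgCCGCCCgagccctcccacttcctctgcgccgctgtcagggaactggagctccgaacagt
Cdh23 promoter: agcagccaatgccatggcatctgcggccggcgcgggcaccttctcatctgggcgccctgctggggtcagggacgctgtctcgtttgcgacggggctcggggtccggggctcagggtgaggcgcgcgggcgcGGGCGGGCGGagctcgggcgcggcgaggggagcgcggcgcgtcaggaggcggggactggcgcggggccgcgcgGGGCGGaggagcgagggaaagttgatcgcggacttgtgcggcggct
Cldn1 promoter: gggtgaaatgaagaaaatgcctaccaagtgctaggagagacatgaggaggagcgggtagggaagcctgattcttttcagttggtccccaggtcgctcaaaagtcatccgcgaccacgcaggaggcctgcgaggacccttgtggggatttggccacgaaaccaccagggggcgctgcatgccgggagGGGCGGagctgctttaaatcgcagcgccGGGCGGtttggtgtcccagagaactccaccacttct
Of the 66 members, 48 had a promoter in that table. A GC box lay in 20 of the 48 and in 30.5% of all 33469 promoters of this length, with 3 matches in Cdh23, of which 2 overlap, 2 in Cldn1, 1 in Itga11 and 0 in Itga1. The median share of G and C letters was 55.2% in the member promoters and 51.2% in all promoters. Its part in the GC box counts was not tested. The letters of an AP-1 site (TGANTCA) were found in 3 of the 48 and in 6.34% of all promoters, those of a TEAD site (GGAATG) in 7 and in 12.1%, those of a TATA box (TATAAA) in 3 and in 12.9%, and those of a cAMP response element (TGACGTCA) in 1 and in 1.59%. A CArG box was found in 1 and in 1.5%. None of these other motifs occurred in the 4 promoters shown. A match is a description of the letters only.

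Within 3 days of culture 15 of 22 tested integrin subunits rose, while the epithelial cadherin Cdh1, Cdh23 and the claudin Cldn1 were among the genes that fell. The comparison asked how the cells' adhesion genes differed between isolate and culture. At day 3, 22 of the 39 tested members rose and 8 fell, where 29.1% and 26.8% of all 13055 genes tested rose and fell. At day 5 it was 25 and 9, against 29.6% and 30.3% of all genes, and at day 7 22 and 10, against 28.5% and 31.4%. The median log2 fold change of the tested members was 0.87, 0.84 and 0.94 at days 3, 5 and 7, and that of all genes was 0.02, -0.03 and -0.05. By family, the integrin alphas had 11 risen and 1 fallen of 16 at day 3, the integrin betas 4 and 1 of 6, the cadherins 6 and 4 of 12 and the claudins 1 and 2 of 5. Called at all 3 days in 1 direction were 19 risen and 8 fallen members, and Cldn4, Cldn12, Itga10 and Itgae were called at none. The shares of all genes with these patterns were not computed, so these counts are a description only. The comparisons at days 3, 5 and 7 share the tissue libraries, so their calls are not independent. All these counts include the 7 members that passed the filter through the cultures alone and the 2 that passed through the tissue alone.

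**Figure D1:**
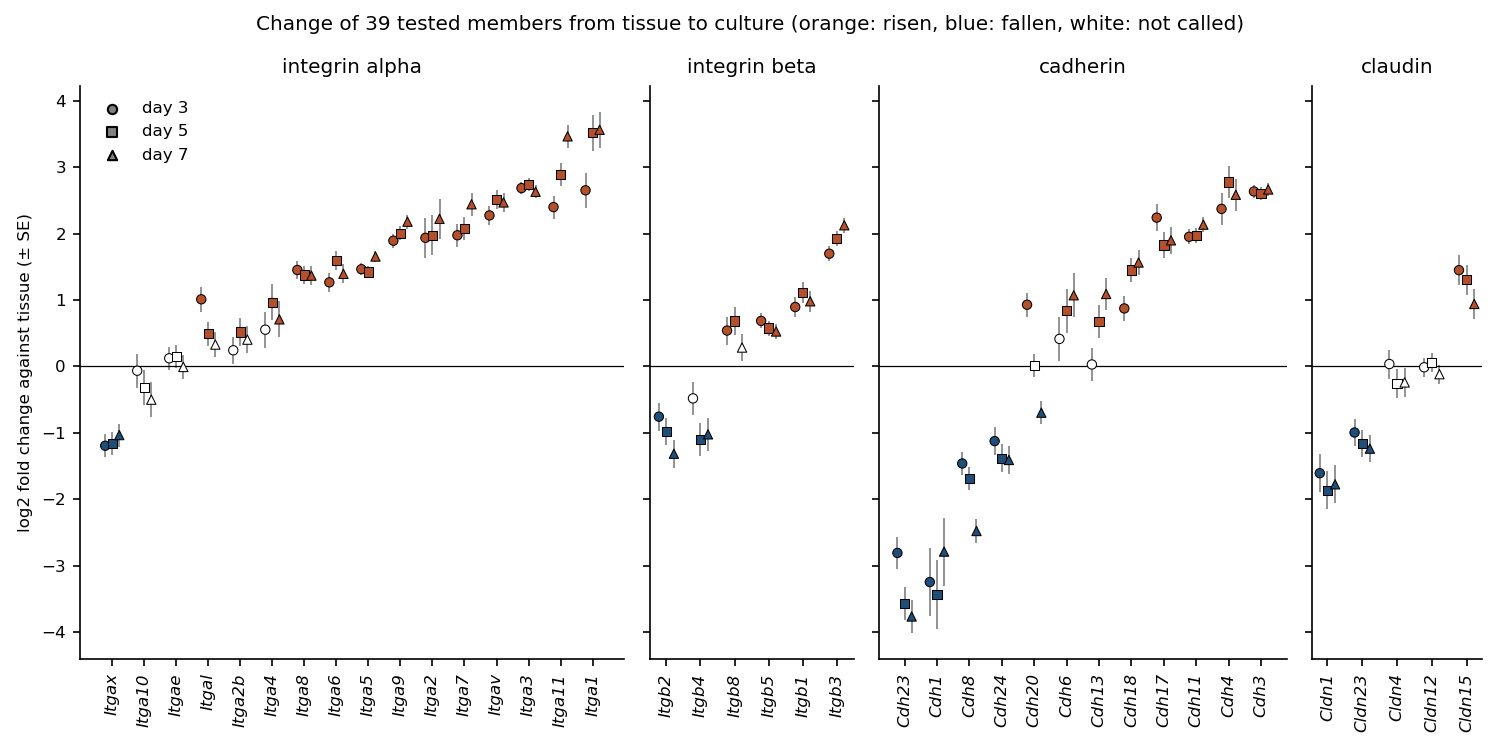
Log2 fold change against tissue (vertical axis, ± SE, n = 3 libraries per group) of the 39 tested members at days 3, 5 and 7, in 4 family panels ordered by the day 7 value. Most integrin alphas lie above 0, with Itga1 at 3.57 at day 7, while the cadherins run from Cdh23 at -3.77 to Cdh3 at 2.67.

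Of the 4 collagen receptor alphas, which all pair with the beta 1 subunit, Itga1, Itga2 and Itga11 rose at each day and Itga10 was not called. Itga1, the type IV collagen receptor subunit of muscle and mesenchymal cells, stood at 4.47, 4.72 and 4.44 CPM in the tissue libraries and at 37.6, 44.0 and 23.5 CPM at day 3, 59.9, 43.2 and 94.9 CPM at day 5 and 51.3, 64.9 and 81.2 CPM at day 7. Tissue and culture did not overlap, and all day 7 libraries lay above all day 3 libraries, with day 5 spanning both. The log2 fold change was 2.65 ± 0.27 at day 3 (limma adjusted p = 2.51e-06) and 3.57 ± 0.27 at day 7 (adjusted p = 1.34e-07). Itga11, a receptor for fibrillar collagens on fibroblasts, had 9.56, 10.3 and 11.9 CPM in tissue, 54.1, 63.5 and 63.2 at day 3, 82.0, 67.8 and 111 at day 5 and 109, 120.3 and 156 at day 7. Every day 7 library lay above every day 3 library. It rose by 2.40 ± 0.17 at day 3 (limma adjusted p = 1.18e-07), 2.90 ± 0.17 at day 5 (adjusted p = 1.82e-08) and 3.47 ± 0.17 at day 7 (adjusted p = 3.62e-09). Itga2, a collagen receptor of epithelia and platelets, was low throughout and rose from 0.206 ± 0.179 to 4.66 ± 1.11 CPM at day 7 (2.22 ± 0.30). Itga10, known from cartilage, had group means of 1.22 to 2.14 CPM in the baseline, with an interval of the day 7 log2 difference of -1.06 to 0.06. It was called at day 5 only without day 5 replicate 2 (limma adjusted p = 0.0372). In the reference annotation Pelo lies within Itga1, and unstranded reads of overlapping genes cannot be told apart; Pelo averaged 50.1 CPM in tissue and 34.0 CPM at day 7.

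All 3 laminin receptor alphas rose at each day. Itga3, which anchors epithelia to laminins of the basement membrane, went from 27.3, 23.3 and 22.2 CPM in tissue to 163, 162 and 159 CPM at day 3 and 168, 146 and 153 CPM at day 7. The day 3 libraries were closely alike and far above tissue, with 2.69 ± 0.10 at day 3 (limma adjusted p = 2.65e-10), 2.74 ± 0.10 at day 5 and 2.63 ± 0.10 at day 7. Itga6, the laminin receptor subunit used to sort spermatogonial stem cells and also made by Sertoli cells, rose from 604 ± 29.2 CPM to 1481 ± 336 CPM at day 3, 1828 ± 165 at day 5 and 1589.9 ± 58.8 at day 7 (1.40 ± 0.14 at day 7). Over the same step the 10 germ cell markers all fell, with a sum of 491 to 521 CPM in tissue and 59.9 to 85.7 CPM at day 7. Of 9 Sertoli cell markers 4 rose and 1 fell, with a sum of 2761 to 3001 and 3927 to 4304 CPM. Of all genes 28.5% rose and 31.4% fell at day 7. The part of these cells in the Itga6 change was not tested. Itga7, the laminin receptor of muscle, rose from 9.28 ± 0.444 to 56.3 ± 14.7 CPM at day 7 (2.44 ± 0.18). Itgb4, the partner of alpha 6 in the hemidesmosomes of stratified epithelia, averaged 6.13 CPM in tissue and 4.12 at day 3 (-0.48 ± 0.25, limma adjusted p = 0.111, not called), and fell by 1.10 ± 0.25 at day 5 (adjusted p = 0.0017) and by 1.02 ± 0.25 at day 7 (adjusted p = 0.0027).

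Of the receptors of the RGD sequence, the short adhesive motif of fibronectin, vitronectin and osteopontin, Itgav, Itga5, Itga8 and the betas Itgb3 and Itgb5 rose at each day. Itgav, which pairs with several betas and also releases latent TGF-beta, had 26.8, 26.1 and 24.4 CPM in tissue, 149.7, 139 and 102 at day 3 and 142, 136 and 167 at day 7. Its log2 fold change was 2.28 ± 0.14 and 2.47 ± 0.14, with no overlap. Itga5, the classical fibronectin receptor, rose from 38.7 ± 2.50 to 108 ± 4.05 CPM at day 3 and 124 ± 8.22 at day 7 (1.66 ± 0.09). Itga8, the nephronectin receptor of mesenchyme and smooth muscle, rose from 43.1 ± 2.66 to 121.6 ± 24.2 CPM at day 3 (1.45 ± 0.14) and held 113 ± 12.5 CPM at day 7. Itgb3, the partner of alpha v on migrating and endothelial cells, stood at 14.6, 13.7 and 12.5 CPM in tissue, 49.2, 42.8 and 47.2 at day 3 and 57.9, 58.6 and 72.4 at day 7, each day 7 library above each day 3 library. Its log2 fold change was 1.70 ± 0.11 at day 3 (limma adjusted p = 6.05e-08) and 2.13 ± 0.11 at day 7 (adjusted p = 6.37e-09).

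Itgb1, the common beta subunit of collagen, laminin and fibronectin receptors, had 1057, 1074 and 993 CPM in tissue, 1993, 2049.9 and 1780.1 at day 3, 2087, 1859 and 2924 at day 5 and 1857, 1936 and 2419.9 at day 7. Every culture library lay above tissue, with the highest value in day 5 replicate 3, and the log2 fold change was 0.90 ± 0.16 at day 3 (limma adjusted p = 0.000304) and 0.98 ± 0.16 at day 7 (adjusted p = 0.000122). Itgb5, a vitronectin receptor subunit, rose from 156 ± 4.40 to 252 ± 24.7 CPM at day 3 (0.69 ± 0.11, limma adjusted p = 0.000194). Itgb8, which holds latent TGF-beta for release, went from 16.0, 13.2 and 14.3 to 30.0, 21.8 and 15.1 CPM and was called at day 3 (0.54 ± 0.21, adjusted p = 0.0419) although the groups overlapped. It was not called with TMM scaling (0.0505), without the filter (0.0649) and without any 1 of the tissue libraries, day 3 replicates 1 or 2, day 5 replicate 1 or day 7 replicate 1 (0.0511 to 0.216). At day 5 Itgb8 was called (0.69 ± 0.21) and at day 7 it was not (0.29 ± 0.21, adjusted p = 0.257). Itgb6, the epithelial partner of alpha v, passed in neither experiment, with group means of 0.122 to 0.806 CPM in the baseline.

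Itga9, which binds tenascin C and osteopontin, rose from 10.5 ± 0.519 CPM to 41.7 ± 3.06 at day 3 (1.90 ± 0.11) and 51.1 ± 2.32 at day 7 (2.18 ± 0.11). Itga4, the VCAM1 and fibronectin receptor of leukocytes and some mesenchyme, was not called at day 3 (0.55 ± 0.27, adjusted p = 0.099; 0.0224 without day 5 replicate 3). It rose by 0.97 ± 0.27 at day 5 and 0.71 ± 0.27 at day 7 (adjusted p = 0.0369). At day 7 it was no longer called without any 1 of the tissue libraries or day 7 replicates 1 or 3 (0.0629 to 0.145) and without the filter (0.0628). In the annotation Itga4 overlaps Cerkl, which was at 0 CPM in tissue and 4.69 CPM at 0 h of the induction experiment.

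The integrins of blood cells were low and split. Itgb2, the beta subunit of the leukocyte integrins, fell from 3.82, 3.53 and 3.45 CPM to 2.00, 1.55 and 1.64 at day 3, 0.811, 1.37 and 1.96 at day 5 and 0.459, 0.954 and 1.22 at day 7, below tissue in every culture library (-1.31 ± 0.21 at day 7, limma adjusted p = 0.000112). Itgax, its partner on dendritic cells and macrophages, fell from 1.05, 1.83 and 1.25 CPM in tissue to 0, 0.0368 and 0.0529 CPM at day 3, which is 0, 1 and 1 read. Itgal, its partner on lymphocytes and macrophages, instead rose from 2.15, 1.74 and 1.45 to 4.49, 3.94 and 5.39 CPM at day 3 (1.01 ± 0.18, adjusted p = 0.000408), with no overlap. At day 5 Itgal was still called (0.49 ± 0.18, adjusted p = 0.0337), but not without tissue replicate 2 or 3 or day 5 replicate 1 or 2 (0.0732 to 0.134), and at day 7 it was not (0.33 ± 0.18, adjusted p = 0.137). Itgam, the macrophage and neutrophil partner, did not pass in the baseline, with group means of 0.305 to 0.526 CPM. Of the 10 macrophage markers 7 were tested, of which 1 rose and 2 fell at day 3 and 1 rose and 4 fell at day 7, and their sum went from 72.9 to 85.5 CPM in tissue to 36.8 to 66.4 CPM at day 3 and 25.6 to 34.6 CPM at day 7. The part of these cells in the result was not tested.

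Itga2b, the platelet fibrinogen receptor subunit, averaged 0.52 CPM in tissue and 1.14 CPM at day 5, where it was called at adjusted p = 0.045 in limma. It was not called in edgeR (0.0716), in DESeq2 (0.0727) and without any 1 of tissue replicates 1 or 3, the day 3 or day 5 libraries or day 7 replicate 2 (0.0503 to 0.231). Of the 6 platelet markers Pf4 was the 1 tested, and it was called at day 5, from 0.132 to 0.985 CPM (0.80 ± 0.23). At that tissue mean no tissue library reached 1 CPM. Like Itga2b, Pf4 thus passed the filter through the cultures alone, so its call is descriptive and no support for a change. Ppbp and Gp1bb had no read in tissue or at day 5. The 6 markers summed to 1.35 to 1.67 CPM in tissue and 1.22 to 2.54 CPM at day 5, and the part of platelets in the result was not tested. Itgae, the alpha subunit with which intraepithelial lymphocytes bind E-cadherin, was at 23.5, 20.1 and 19.6 CPM in tissue and 18.01, 23.1 and 21.9 CPM at day 7 (-0.01 ± 0.18, adjusted p = 0.975), while its only known beta, Itgb7, was below 1 CPM everywhere. The kinase gene Haspin lies within Itgae in the annotation and averaged 13.9 CPM in tissue, so the Itgae level is uncertain.

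**Figure D2:**
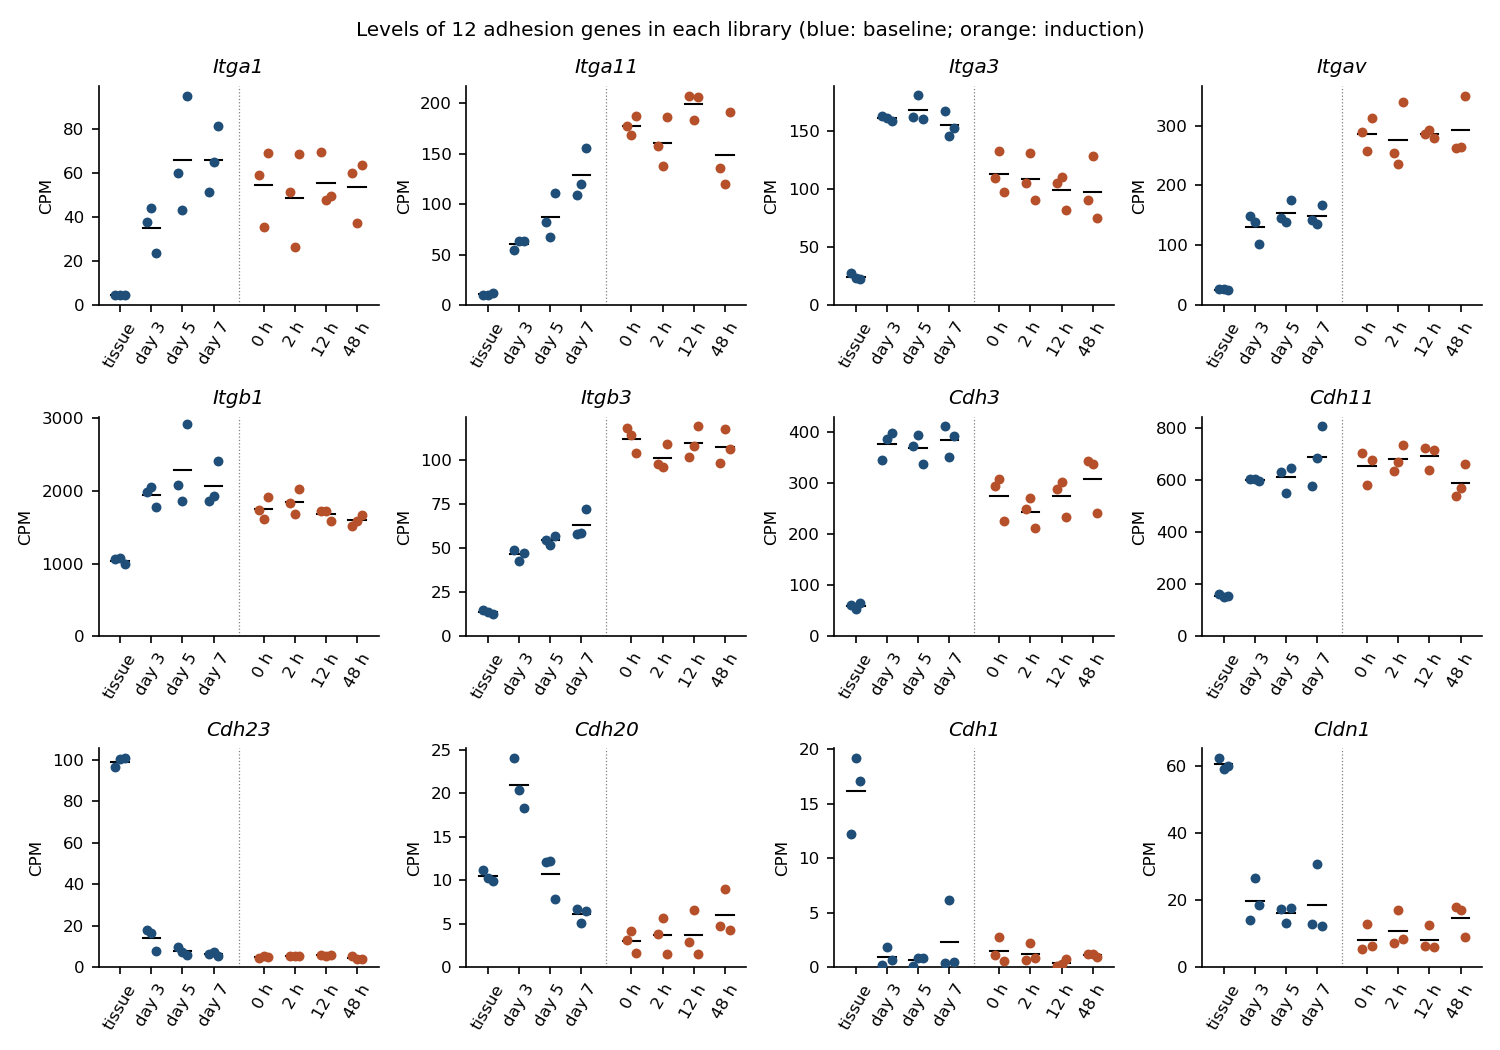
CPM of 12 members in each of the 24 libraries, 1 panel per gene with its own axis from 0; points are libraries, bars are group means of 3 libraries, and the dotted line parts the baseline from the induction experiment, which were not tested against each other. Itga11 climbs from 10.6 CPM in tissue to 128 CPM at day 7, and Cdh23 drops from 99.2 to 6.40 CPM.

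Among the cadherins, Cdh3, Cdh4, Cdh11, Cdh17 and Cdh18 rose at each day, and Cdh1, Cdh8, Cdh23 and Cdh24 fell at each day. Cdh3, placental cadherin, had 61.1, 53.8 and 64.1 CPM in tissue, 346, 387 and 397 at day 3, 372, 394 and 337 at day 5 and 411, 351 and 391 at day 7. No tissue library overlapped a culture library, the days did overlap each other, and Cdh3 rose by 2.64 ± 0.10 (limma adjusted p = 5.04e-10), 2.60 ± 0.10 and 2.67 ± 0.10 at the 3 days. Cdh11, the cadherin of mesenchymal and bone-forming cells, rose from 163, 149 and 152 to 605, 603 and 596 CPM at day 3 (1.95 ± 0.11) and 575, 685 and 808 CPM at day 7 (2.14 ± 0.11, adjusted p = 6.58e-09). All culture libraries lay far above tissue. Cdh4, retinal cadherin, was nearly silent in tissue at 0.439, 0.826 and 0.263 CPM and stood at 7.36, 6.71 and 6.19 CPM at day 3 and 6.60, 11.01 and 6.90 CPM at day 7 (2.37 ± 0.24 and 2.59 ± 0.24, adjusted p of 2.91e-06 and 1.04e-06).

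Cdh17, the liver and intestine cadherin, rose from 0.263, 0.688 and 0.197 to 6.90, 4.50 and 5.23 CPM at day 3 (2.24 ± 0.20, limma adjusted p = 8.3e-07) and was 3.61, 3.56 and 5.33 CPM at day 7 (1.90 ± 0.20). Like Cdh4, Cdh6 and Cdh18, Cdh17 passed the filter through the cultures alone, so the p-values of these genes are descriptive. Cdh18, a type II cadherin of the brain, rose from 0.131 ± 0.0847 to 2.35 ± 0.209 CPM at day 7 (1.57 ± 0.18). Cdh6, the kidney cadherin, and Cdh13, a cadherin held to the membrane by a lipid anchor without a cytoplasmic tail, were not called at day 3. They rose at day 7 by 1.07 ± 0.33 and 1.09 ± 0.25 (adjusted p of 0.0126 and 0.00178), Cdh6 from 0.395, 0.734 and 0.461 to 1.49, 1.69 and 3.91 CPM. Without day 7 replicate 3, its highest library, Cdh6 was not called (0.0678). At day 5 both were called (0.041 and 0.0292). The day 5 change was not called for Cdh6 without any 1 of the tissue libraries or day 5 replicates 1 or 3 (0.0538 to 0.193), for Cdh13 without tissue replicate 3 or day 5 replicate 2 (0.108 to 0.126), and without the filter for both (0.0598 and 0.0508).

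Cdh1, epithelial cadherin, which in the testis marks undifferentiated spermatogonia, fell from 12.2, 19.2 and 17.1 CPM to 0.226, 1.81 and 0.634 at day 3, 0.116, 0.847 and 0.847 at day 5 and 0.402, 6.16 and 0.457 at day 7. Day 7 replicate 2 stood apart from the other culture libraries but below every tissue library. Log2 fold changes were -3.25 ± 0.51, -3.44 ± 0.51 and -2.79 ± 0.51 (limma adjusted p of 0.000126, 7.06e-05 and 0.000378), and without day 7 replicate 2 the day 7 value was -3.56. All 10 germ cell markers fell with it at each day, and of 6 tested epithelial markers 4, 4 and 5 fell and 0 rose at days 3, 5 and 7, among them Epcam, from 32.6 to 2.52 CPM at day 7, which undifferentiated spermatogonia also make. Summed, the epithelial markers were at 424 to 434 CPM in tissue and 199 to 317 CPM at day 7. The part of these cells in the fall of Cdh1 was not tested.

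Cdh23, known for the tip links of hair cells in the inner ear, fell from 96.4, 100.3 and 101 CPM to 17.8, 16.4 and 7.88 at day 3, 9.50, 7.34 and 5.87 at day 5 and 6.48, 7.28 and 5.43 at day 7. The tissue libraries lay within a few CPM of each other and far above all others, with a log2 fold change of -2.81 ± 0.24 at day 3 (limma adjusted p = 6.61e-07) and -3.77 ± 0.24 at day 7 (adjusted p = 3.57e-08). Psap and Vsir overlap it in the annotation and averaged higher at day 7 than in tissue, at 1483 and 2193 CPM for Psap and 1.62 and 2.13 CPM for Vsir. Cdh8, a type II cadherin of the nervous system, fell from 28.7, 29.8 and 28.3 to 11.5, 10.2 and 8.14 CPM at day 3 (-1.46 ± 0.18, adjusted p = 1.43e-05) and 4.59, 4.94 and 3.65 CPM at day 7 (-2.48 ± 0.18, adjusted p = 9.47e-08). Cdh24, another type II cadherin, fell from 53.8 ± 0.592 to 19.9 ± 4.27 CPM (-1.41 ± 0.21 at day 7).

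Few claudins were measurable, and of the 5 tested Cldn1 and Cldn23 fell and Cldn15 rose at each day. Cldn1, a barrier-forming claudin best known from skin, fell from 62.7, 59.3 and 60.2 CPM to 14.2, 26.8 and 18.6 at day 3, 17.4, 13.2 and 17.6 at day 5 and 12.9, 30.7 and 12.3 at day 7. All culture libraries lay below tissue, with replicate 2 the highest at days 3 and 7, and the log2 fold changes were -1.61 ± 0.29, -1.87 ± 0.29 and -1.78 ± 0.29 (limma adjusted p of 0.000359, 9.45e-05 and 0.000137). Cldn15, which forms sodium channels in the intestine, rose from 0.526, 0.505 and 0.658 to 3.24, 2.62 and 4.07 CPM at day 3 (1.45 ± 0.23, adjusted p = 0.000109) and stood at 3.16, 1.34 and 1.78 CPM at day 7 (0.94 ± 0.23, adjusted p = 0.00263). It passed the filter through the cultures alone, so its p-values are descriptive. Cldn23, a claudin of skin and gut, fell from 1.92 ± 0.293 CPM to 0.246 ± 0.223 CPM at day 7. Cldn12, a claudin without the usual PDZ-binding tail, was 36.0, 38.8 and 36.7 CPM in tissue and 26.3, 37.0 and 40.9 CPM at day 7, with an interval of the log2 difference of -0.43 to 0.19. Cldn3, an androgen-regulated claudin of the blood-testis barrier in mouse, did not pass, with group means of 0.12 to 0.569 CPM in the baseline and 0.0804 to 0.164 CPM in the induction experiment.

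More genes of the proteins around these receptors rose than fell. Of all genes 29.1% rose and 26.8% fell at day 3 and 28.5% and 31.4% at day 7, where their median log2 fold change was -0.05. Of 22 cytoplasmic partners of integrins, 19 rose and 0 fell at day 3 and 18 rose and 1 fell at day 7, with a median log2 fold change of 0.98 at day 7. Lims2, an adaptor of integrin-linked kinase, and Actn1, an actin crosslinker, rose by 3.28 ± 0.21 and 1.89 ± 0.12 at day 7, and Bcar1, a docking protein of focal adhesions, fell by 0.36 ± 0.13. Of 11 cadherin partners, 6 rose and 2 fell at day 3 and 6 rose and 1 fell at day 7 (median 0.27), with Vcl (vinculin), which is also on the integrin list, at 1.78 ± 0.14 and Ctnnd2 (delta catenin) at -0.68 ± 0.22. Among 13 tested tight junction partners, 8 rose and 1 fell at day 7 (median 0.62), including the junctional adhesion molecule Jam3 at 1.99 ± 0.11 and Cgnl1 (paracingulin) at -0.51 ± 0.12. Of 24 tested integrin ligands, 18 rose and 3 fell at day 7 (median 1.21), with Spp1 (osteopontin), a ligand of alpha v and alpha 9, at 3.41 ± 0.58 and Vtn (vitronectin) at -1.58 ± 0.31. Of 16 tested other adhesion molecules 12 rose and 1 fell at day 7 (median 0.94), with the syndecan Sdc2 at 3.03 ± 0.29.

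Marker sums of several cell types also differed between tissue and culture. The 8 myoid and smooth muscle markers summed to 1426 to 1592 CPM in tissue and 4216 to 4960.2 CPM at day 7, with 7 of 8 risen. Mesothelial markers, of which 4 of 7 were tested, summed to 238 to 257 CPM in tissue and 426 to 557 CPM at day 7, with 3 risen at day 7. Endothelial markers summed to 96.5 to 114 CPM in tissue, 143 to 173 CPM at day 3 and 114 to 121.97 CPM at day 7. Of 6 tested endothelial markers 1 rose and 2 fell at day 3 (median log2 fold change -0.02), and 2 rose and 2 fell at day 7 (median -0.53). Of all genes 29.1% rose and 26.8% fell at day 3, and 28.5% and 31.4% at day 7. The part of these cell types in the changes of the adhesion genes was not tested.

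Between days 3 and 7 of culture few adhesion genes were called. Of 39 members 2 rose and 3 fell, where 1.36% and 2.44% of all genes did. With TMM scaling 4 rose and 2 fell, where 1.86% and 1.88% of all genes did, and in DESeq2 6 rose, where 3.15% did. Itga11 rose from 60.3 ± 5.35 to 128 ± 24.4 CPM (1.07 ± 0.17, limma adjusted p = 0.005). Cdh13 rose from 3.32, 2.17 and 1.80 to 7.63, 4.03 and 7.05 CPM (1.06 ± 0.25, adjusted p = 0.0291), but was not called without day 3 replicate 2 or 3 or day 7 replicate 1 or 3 (0.0938 to 0.128) and without the filter (0.0666). Cdh20, a type II cadherin of neural crest and brain, had 11.2, 10.2 and 9.90 CPM in tissue, 24.1, 20.3 and 18.3 at day 3, 12.1, 12.2 and 7.88 at day 5 and 6.71, 5.07 and 6.49 at day 7. It was the only member to rise at one day against tissue (0.93 ± 0.18 at day 3, adjusted p = 0.000598) and fall at another (-0.70 ± 0.18 at day 7, adjusted p = 0.00421), with a log2 difference of day 7 against day 3 of -1.63 ± 0.18 (adjusted p = 0.000428). Cdh8 fell further by 1.02 ± 0.18 (adjusted p = 0.00744). Cdh23 fell by 0.96 ± 0.24 (adjusted p = 0.0468), but it was not called with TMM scaling (0.0665), without the filter (0.0937) and without any 1 of the tissue libraries, day 3 replicates 1 or 2, day 5 replicate 1 or the day 7 libraries (0.052 to 0.207). Itgb3 was not called in limma with all libraries (0.43 ± 0.11, adjusted p = 0.0545) but was called in edgeR (0.03), in DESeq2 (0.00357), with TMM scaling (0.0354) and without day 5 replicate 3 (0.0372). Itga1 was called without day 5 replicate 2 or 3 (0.0432 and 0.0269) and in DESeq2 (0.0144), but not in limma with all libraries (0.91 ± 0.27, adjusted p = 0.0812). DESeq2 also called Itga7 and Itga9, and without 1 library Itgal (day 5 replicate 3 or day 7 replicate 2), Cdh18 (day 5 replicate 3) and Itga7 (day 7 replicate 2) were called, Cdh18 also with TMM scaling and without the filter. Without day 3 replicate 2 or 3 or day 7 replicate 1 or 3 only 1 member rose, and without day 5 replicate 3, the library with the highest Itgb1 and Itga1, 5 did.

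After LH and FSH no adhesion gene was called at 2 or 12 h, and at 48 h none without litter in the fit and 3 with litter as a block. The comparison asked how the cultures' messenger RNA differed after hormone and fresh medium. In the limma fit without litter, 4 of 39 members at 2 h had an unadjusted p under 0.05, as had 1 at 12 h and 5 at 48 h. The share of all genes with such a p was not computed, so these counts are a description only. Also without litter, edgeR called 0 at each time while DESeq2 called 1 at 2 h (Cldn12, adjusted p = 0.0358, where 2.04% of all genes rose) and 0 later. Of all 12450 genes limma without litter called 0% risen and 0% fallen at 2 h, the same at 12 h, and 0.345% and 0.0482% at 48 h. With the block it called 0.329% and 0.289% at 2 h and 0% and 0% at 12 h. The 95% interval of the log2 difference lay within 2-fold in either direction for 32, 32 and 29 of the 39 members at the 3 times without litter, and for 39, 36 and 31 with the block. The share of all genes with such an interval was not computed either. Itgb1 had 1744, 1614 and 1916 CPM in litters 1, 2 and 3 at 0 h and 1519.8, 1589.9 and 1673 CPM at 48 h (-0.14 ± 0.10, interval -0.35 to 0.08). Itgav had 289, 257 and 312 and 263, 264 and 350.0 CPM (interval -0.28 to 0.33), and Cdh11 701, 582 and 676 and 539, 568 and 659.6 CPM (interval -0.37 to 0.07). The intervals of these 3 genes and the SE of Itgb1 are from the fit without litter, which leaves out the pairing by litter.

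With litter as a block 2 members rose and 1 fell at 48 h, where 2.22% and 2.13% of all genes did. Itga4 was 20.4, 10.4 and 25.7 CPM at 0 h and 10.7, 5.65 and 13.9 CPM at 48 h in litters 1, 2 and 3, lower in each litter (-0.83 ± 0.36, limma adjusted p = 0.363; -0.83 ± 0.17, 0.0273 with the block). Cdh20 was 3.11, 4.16 and 1.62 CPM at 0 h and 4.73, 9.03 and 4.26 CPM at 48 h, higher in each litter (0.81 ± 0.44, adjusted p = 0.465; 0.0273 with the block). Itgb2 was 5.51, 1.04 and 2.60 CPM at 0 h, 4.17, 1.36 and 3.62 at 2 h, 4.60, 1.84 and 6.68 at 12 h and 8.72, 2.20 and 12.0 at 48 h, again higher at 48 h in each litter (1.03 ± 0.57, adjusted p = 0.473; 0.0405 with the block). Cerkl, which overlaps Itga4 in the annotation, averaged 4.69 CPM at 0 h and 2.64 CPM at 48 h. The part of its reads in the Itga4 call was not tested. The block left the calls of the other 36 members at 48 h as they were. Cdh6 had the lowest adjusted p without the block at 48 h, with 6.13, 1.91 and 5.64 CPM at 0 h and 1.15, 1.96 and 1.83 CPM at 48 h (-0.98 ± 0.36, adjusted p = 0.285; 0.0906 with the block). Cldn1 was 5.27, 12.8 and 6.31 CPM at 0 h and 18.1, 17.1 and 9.05 CPM at 48 h and was not called (0.82 ± 0.39, adjusted p = 0.407; 0.0555 with the block). Among the integrin ligands Lama2, the laminin chain of muscle basement membrane, was the 1 gene of 22 tested that rose at 48 h without the block, from 163 to 480.3 CPM (1.51 ± 0.28). With the block 3 of the 22 ligands rose and 1 fell, and of the 22 cytoplasmic partners of integrins 0 rose and 4 fell.

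**Figure D3:**
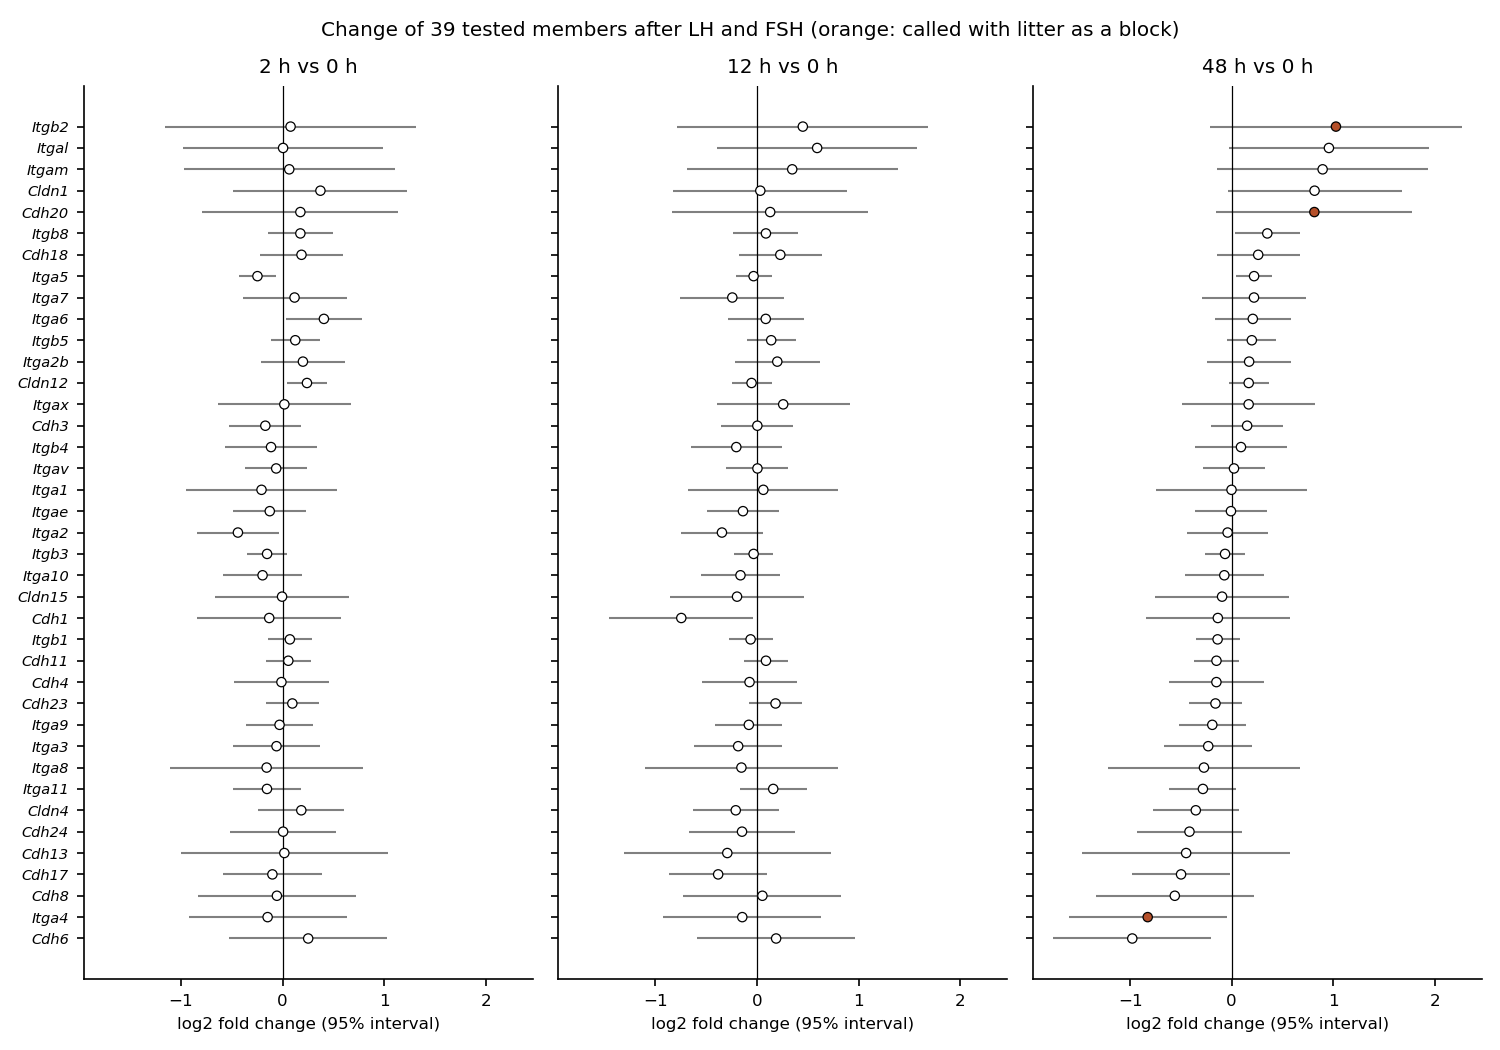
Log2 fold change against 0 h (horizontal axis, with unadjusted 95% intervals, n = 3 litters per time) of the 39 tested members at 2, 12 and 48 h after LH and FSH, ordered by the 48 h value. The intervals are from the fit without litter, while filled points were called in the separate fit with litter as a block. Values at 48 h run from -0.98 for Cdh6 to 1.03 for Itgb2, and the 3 filled points are Itgb2, Cdh20 and Itga4.

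The other leukocyte integrins and the macrophage markers also differed between litters. Itgal was 7.57, 2.58 and 2.60 CPM at 0 h and 12.1, 3.92 and 11.6 CPM at 48 h in litters 1, 2 and 3 (0.96 ± 0.45, limma adjusted p = 0.397, 0.0631 with the block). Itgam was 2.16, 0.25 and 0.552 and 2.91, 0.594 and 5.33 CPM (0.90 ± 0.48, adjusted p = 0.456, 0.15 with the block), and Itgax 1.39, 0.333 and 0.434 and 1.21, 0.416 and 1.07 CPM. In each of these genes litter 2 was the lowest at 48 h. The 10 macrophage markers summed to 212, 40.1 and 76.7 CPM at 0 h and 353, 59.8 and 455 CPM at 48 h in the same litters, higher at 48 h in each. With the block, the fit in which Itgb2 was called, 2 of 9 tested macrophage markers rose (Mrc1 and Lyz2), and without it 0 did, and their median log2 fold change was 1.11. The part of macrophages in the Itgb2 call was not tested. Over the 4 times Itgb2 ranged from 1.04 to 2.20 CPM in litter 2, below every library of litters 1 and 3.

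**Figure D4:**
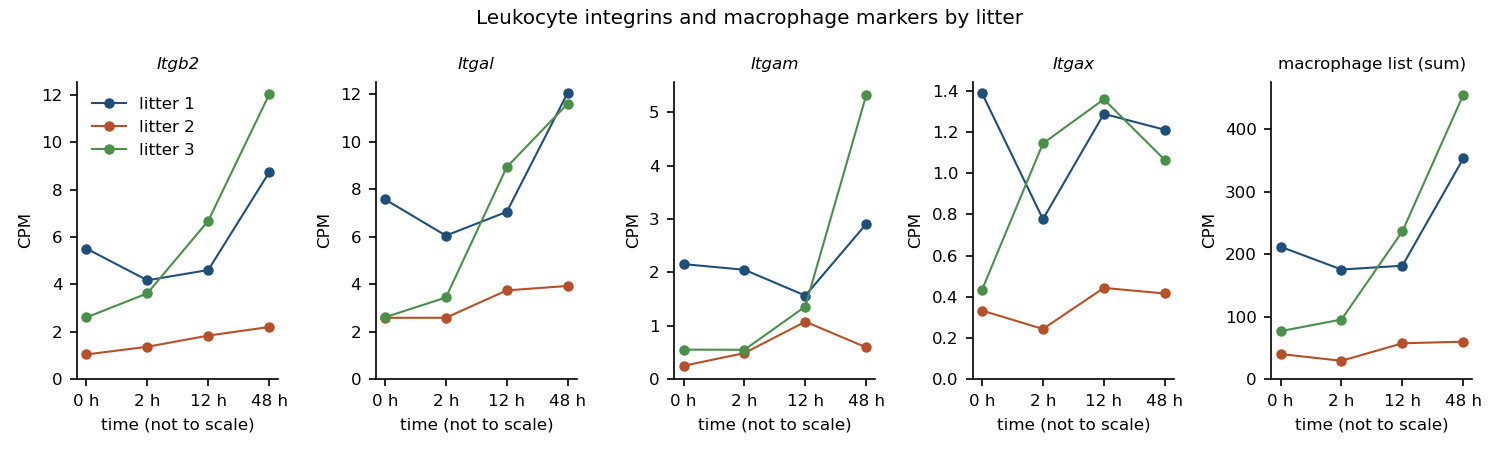
CPM (vertical axes from 0) of 4 leukocyte integrin genes and the summed CPM of 10 macrophage markers at 0, 2, 12 and 48 h, with 1 line per litter and time steps not to scale. Litters 1 and 3 end at 8.72 and 12.0 CPM of Itgb2, litter 2 at 2.20 CPM.

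In some other members the range of 1 litter over the 4 times did not overlap those of the other litters, without a test. The share of all genes with this pattern was not computed, so these ranges are a description only. Itga8 ranged over 36.9 to 57.5 CPM in litter 3 against 92.9 to 109 CPM in litter 1 and 80.4 to 105 CPM in litter 2. Itga1 was lowest in litter 2, at 26.2 to 47.7 CPM against 51.5 to 69.6 and 49.4 to 69.2 CPM in litters 1 and 3, and so was Cdh13, at 3.21 to 5.32 CPM against 6.18 to 14.1 and 6.68 to 13.8 CPM. Itga3 was highest in litter 2, at 111 to 133 CPM against 90.3 to 109.5 and 75.3 to 97.5 CPM. Cdh3 and Cdh4 were lowest in litter 3, at 212 to 241 and 8.17 to 9.66 CPM. Cldn15 was highest in litter 2, at 2.02 to 2.387 CPM against 1.151 to 1.916 and 0.4139 to 1.283 CPM in litters 1 and 3. Litter means over the 4 times lay close together for Itga5, at 120.8, 126 and 126 CPM, and for Itgb3, at 104, 109 and 109.8 CPM.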

How the data were processed

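Polyadenylated RNA was sequenced from 24 libraries as non-directional Illumina libraries, per the labels' protocols, so overlapping genes on opposite strands could not be separated. Reads were aligned with STAR to mRatBN7.2, per the submitters' processing notes; version, counter and annotation are not given in the sources used here. CPM values were deposited by the authors. Dividing each value by the worth of 1 read in its library gave a whole number (tolerance 0.01 read) for 100% of values, so reads were recovered for edgeR and DESeq2.

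Each experiment was fitted alone with limma 3.58.1 (R 4.3.3) on log2(CPM + 1), with all 12 libraries, group as the only term and an empirical Bayes trend. Genes with at least 1 CPM in at least 3 libraries were tested (13055 baseline, 12450 induction), two-sided, with Benjamini-Hochberg adjustment in each of 7 comparisons, and called at an adjusted p under 0.05. Alternatives were a pseudocount of 0.5, no filter, TMM scaling, a replicate block, each library left out, edgeR 4.0.16 and DESeq2 1.42.0.

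The labels name litters, and 18 same-litter pairs had a median correlation of deviations across genes of 0.482 (-0.0119 to 0.747), so litter pairs the induction libraries. In the baseline the median was -0.000715, and the replicate numbers were not treated as pairs. Members and lists were chosen with earlier results of these data known. Full statistics went to at most 3 risen and 3 fallen members per family and comparison with at least 2 CPM in the higher group, and other members were given by level or log2 fold change, with an adjusted p only where a call was missed, lost or gained under an alternative. All 66 members matched a RefSeq symbol (GRCr8, names and promoters only). Intervals cover sampling between libraries, and read floors cover counting error only.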

Additional observations from a re-analysis of the deposited data

Results flagged for a closer look

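For 5 members the change from tissue at day 7 differed from that at day 3, by the test of day 7 against day 3. The difference on the log2 scale was 1.07 for Itga11 and 1.06 for Cdh13, both higher at day 7 than at day 3. It was -1.63 for Cdh20, -1.02 for Cdh8 and -0.96 for Cdh23, all lower at day 7 than at day 3. Cdh20 alone among the 5 members stood above tissue at day 3 and below it at day 7. The call was lost in 11 of 18 alternatives for Cdh23, in 5 for Cdh13 and in 0 for Itga11, Cdh20 and Cdh8.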

How the results depend on the processing

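For the comparisons with tissue, the 18 alternatives gave counts of risen and fallen members within 1.5 times those reported, and leaving out 1 library gave 21 to 23 risen and 6 to 8 fallen at day 3, 21 to 25 and 7 to 10 at day 5, and 20 to 22 and 8 to 10 at day 7. Between days 3 and 7 the 2 risen members became 4 with TMM scaling and 6 in DESeq2, and 1 to 5 with a library left out, while fallen members were 2 to 4 with a library left out. After hormone, leaving out any 1 library gave 0 risen and 0 fallen at each time in the fit without litter. The fit with litter as a block was not repeated with a library left out, so the stability of its calls was not tested. DESeq2 gave 1 risen at 2 h, and with litter as a replicate block 2 rose and 1 fell at 48 h. The baseline replicate block changed 1 call, that of Itga2b at day 5. No called member changed direction under the alternatives that tested it, 15 for Cldn23 and Itgax and 18 for the others. The causes of lost calls were not tested. Depth limits members near 1 CPM, where 1 read was worth up to 0.0633 CPM and the pseudocount shrinks fold changes.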
